A study of Mus musculus with 6 samples.

Results

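Activins are secreted growth factors of the Tgf-β superfamily, and the genes described here encode their β-subunits (Inhba and Inhbb), the follistatin proteins that bind them or resemble such binders (Fst, Fstl1 and Fstl3), type I receptors of the family (Acvr1 and Acvr1b) and its type II receptors (Acvr2a and Acvr2b). These 9 genes, out of 43274 in the table, were found by matching Ensembl gene identifiers to mouse symbols, and all 9 were present. The family was selected on the genotype differences of Inhba, Inhbb and Fst in these same 6 libraries, so that the differences are given as a description and are no independent test of the family. Bulge SCs, the quiescent stem cells of the hair follicle, were sorted by FACS as CD34+ cells with high α6 integrin from the epidermis of mice at postnatal day 21. The control libraries (n = 3) came from ILK fl/+ mice carrying the K5-Cre transgene, labelled ILK +/-, and the ILK-K5 libraries (n = 3) from ILK fl/fl mice with the same transgene, labelled ILK -/-. The K5 promoter drives Cre in basal keratinocytes of the whole epidermis and its follicles, so that deletion was not limited to the bulge, and both genotypes expressed Cre. The mice had a C57Bl6-129/Sv background. The labels do not say whether each library came from 1 mouse or from pooled mice.

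Activins signal as dimers of β-subunits, a dimer of the Inhba product being activin A and a dimer of the Inhbb product activin B. The dimer binds a type II receptor, which recruits and phosphorylates the type I receptor Acvr1b (Alk4), and this receptor activates the transcription factors Smad2 and Smad3. Follistatin, the product of Fst, wraps around activin and keeps it from its receptors, and Fstl3 does the same. In skin, activin is known from wound repair and keratinocyte growth, and follistatin from hair follicle development.

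The libraries held from 8228019 to 11969072 reads on genes, and 1 read corresponded to between 0.726 and 1.52 normalized counts, that is, reads divided by the size factor of the library. Genotypes were compared on log2(normalized count + 1) with limma, over the 16368 genes whose mean over all 6 libraries reached 10 normalized counts. Called genes are those whose p-value, adjusted after Benjamini and Hochberg, did not exceed 0.05. Of all genes tested, 3.53% were called, 2.93% higher and 0.599% lower in ILK-K5 bulge SCs. With 3 libraries per genotype, exact permutation of the labels for 1 gene gives no p-value below 0.1. The targeted gene did not serve as a check of the labels, since the log2 difference of Ilk was 0.30 (standard error 0.64, adjusted p = 0.933). It had between 11 and 53 reads per library, and 89.7% of its exon bases also lie in exons of neighbouring genes on the opposite strand. Why no difference was seen was not tested. All 8 bulge SC markers on the list were detected in every library. Among them Cd34, the surface marker of the sort, was called lower in ILK-K5 (log2 difference -1.90, adjusted p = 0.0239). This call held in 2 of the 6 fits without a library, with adjusted p-values up to 0.0877, and was lost in replicates 2 and 3 alone (-1.47, adjusted p = 0.137). No other bulge SC marker was called. Of the 8 markers 5 had negative and 3 had positive log2 differences. Sox9 and Lhx2 had 0.26 and -0.10, and Krt15 had -1.16, with overlapping libraries. Nfatc1 had -0.60, with every ILK-K5 library below every control library.

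Of the 9 family genes, 8 passed the filter on low counts. Inhba and Inhbb were called higher and Fst was called lower in ILK-K5 bulge SCs, and the other 5 tested genes were not called. Acvr2b did not pass, with a mean of 6.20 normalized counts, and Fstl3, at 12.5, was the family gene closest above the limit. The libraries of the 2 genotypes did not overlap for 5 of the 8 tested genes, 4 higher and 1 lower in ILK-K5. Of all genes tested, 17.9% were separated in this way, 10.9% higher and 6.95% lower. The tested genes had a median log2 difference of 0.44, against 0.0054 for all genes. Since the family was put together with these differences known, nothing is read from these counts.

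**Figure D1:**
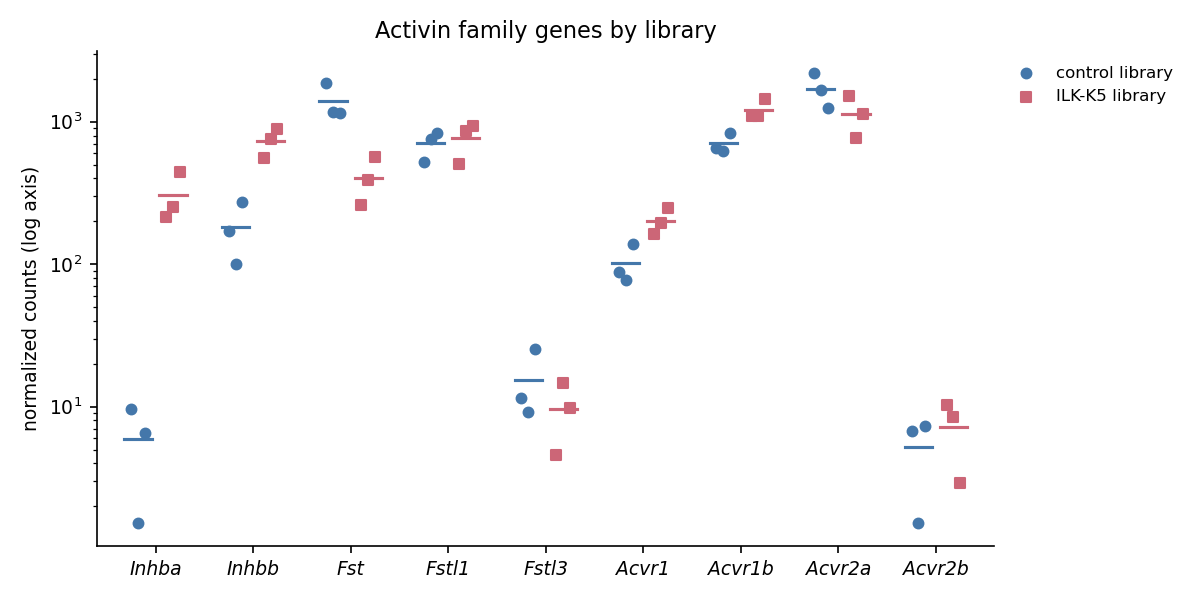
Normalized counts of the 9 family genes on a log axis, with 1 point per library (circles, control; squares, ILK-K5) and the mean of each genotype as a line. Inhba lies between 1.52 and 9.65 in the control and between 214 and 447 in the ILK-K5 libraries, Fst lies higher in all control libraries, and Fstl1, Fstl3, Acvr2a and Acvr2b overlap.

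The ligand genes differed most. Inhba, a plus-strand gene of chromosome 13 that spans 16011851 to 16031621 (GRCm38), had 9.65, 1.52 and 6.53 normalized counts in control libraries 1 to 3, which correspond to 10, 1 and 9 reads. In ILK-K5 libraries 1 to 3 it had 214, 251 and 447 normalized counts, from 188, 326 and 459 reads. Every ILK-K5 library lay far above every control library, and no control library had more than 10 reads. Control libraries averaged 5.90 ± 4.10 (SD, n = 3) and ILK-K5 libraries 304 ± 125 (SD, n = 3), a rise of 5.63 on the log2 scale (95% interval 4.23 to 7.03, adjusted p = 0.00124 from limma). The gene was called in all 6 fits that each left out a library. It passed the filter only through its ILK-K5 libraries, since the control mean was below 10. The family was selected on this difference, so that these fits describe it and do not test it.

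Inhbb, a minus-strand gene of chromosome 1 that spans 119415465 to 119422248, was already expressed in the controls. Control libraries 1 to 3 had 170, 100.4 and 274 normalized counts of it, whereas ILK-K5 libraries 1 to 3 had 552, 752 and 894. The lowest ILK-K5 library was above the highest control library. The means were 181 ± 87.2 (SD, n = 3) and 733 ± 172 (SD, n = 3), a rise of 2.10 on the log2 scale or 4.28-fold (95% interval of the log2 change 1.22 to 2.98, adjusted p = 0.0191). This call was lost when control library 2 (adjusted p = 0.0651), ILK-K5 library 2 (0.0887) or ILK-K5 library 3 (0.0927) was left out.

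The numbers in the sample descriptions set replicate 1 of each genotype apart from replicates 2 and 3, for a reason that the labels do not give. Within replicates 2 and 3 alone, the log2 change was 6.27 for Inhba (adjusted p = 0.00574) and 2.30 for Inhbb (adjusted p = 0.0593, not called). Replicate 1 holds a single library per genotype, with a log2 difference of 4.34 for Inhba and 1.70 for Inhbb.

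The stretches upstream of both ligand genes are shown because the pair was called in the same direction while their sequences were unlike. Each is the run of 250 bases that ends at the base before the transcription start, from RefSeq (GRCm38.p6), at chr13:16011601-16011850 on the plus strand for Inhba and at chr1:119422249-119422498 on the minus strand for Inhbb. Neither run overlaps an exon of the GENCODE annotation. Capitals mark matches on either strand to 4 motifs that were searched, namely the AP-1 motif TGANTCA, the Smad box CAGAC, the TATA box TATAAA and the Sp1 motif GGGCGG, which do not overlap here.
Inhba: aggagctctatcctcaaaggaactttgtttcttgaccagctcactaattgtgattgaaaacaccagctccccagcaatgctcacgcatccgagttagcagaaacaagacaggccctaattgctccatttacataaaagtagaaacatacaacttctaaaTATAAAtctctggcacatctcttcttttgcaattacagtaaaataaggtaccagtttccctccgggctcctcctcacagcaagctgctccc
Inhbb: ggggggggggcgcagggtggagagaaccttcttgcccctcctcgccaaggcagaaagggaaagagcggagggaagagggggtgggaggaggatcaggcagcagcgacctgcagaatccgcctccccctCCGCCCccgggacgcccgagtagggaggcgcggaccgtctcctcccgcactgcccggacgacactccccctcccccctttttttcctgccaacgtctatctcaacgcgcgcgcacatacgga
The Inhba run had a GC content of 43.2% and held 3 CpG dinucleotides, and its only match was TATAAA, which begins 91 bases before the start. The Inhbb run had a GC content of 68.0% and held 21 CpG dinucleotides, and its only match was to GGGCGG, on the opposite strand, 122 bases before the start. Over the 32851 promoters of the same length in the reference, the median GC content was 52.4%, 12.4% held TATAAA, 32.7% held GGGCGG, 6.75% held TGANTCA and 42.2% held CAGAC. Promoter sequences were matched for 8 of the 9 family genes, all but Fst. Apart from Inhba, the other 7 ranged from 68.0% GC (Inhbb and Fstl1) to 85.6% (Acvr1), and each held at least 1 match to GGGCGG. Some of these windows overlap GENCODE exons of their own gene. All 250 bases do so for Acvr1, 182 for Fstl1, 60 for Acvr2b, 5 for Acvr1b and 2 for Fstl3. None of the 8 held TGANTCA. Besides Inhba only Fstl3 held TATAAA, on the opposite strand, 29 bases before the start. The Smad box was found in the windows of Acvr2a, Acvr2b and Fstl3. These matches describe the letters of the windows only.

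The follistatin genes did not move together. Fst, which encodes the main secreted activin antagonist, is a minus-strand gene of chromosome 13 that spans 114452290 to 114458951. Its normalized counts in control libraries 1 to 3 were 1880, 1178 and 1154, against 260, 387 and 564 in ILK-K5 libraries 1 to 3. Each ILK-K5 library had less than any control library. The means were 1404 ± 413 (SD, n = 3) and 404 ± 153 (SD, n = 3), and Fst fell by 1.83 on the log2 scale, which is 3.55-fold (95% interval of the log2 change -2.61 to -1.05, adjusted p = 0.0208 from limma). The call was lost when control library 2 (adjusted p = 0.0762), ILK-K5 library 1 (0.0695) or ILK-K5 library 2 (0.0859) was left out. Replicates 2 and 3 alone gave a log2 difference of -1.32 (adjusted p = 0.0741, not called), and replicate 1 gave -2.85.

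Fstl1, a secreted glycoprotein with a follistatin domain that is mostly known outside activin binding, was measured at a similar depth. Control libraries 1 to 3 held 519, 757 and 840 normalized counts and ILK-K5 libraries 1 to 3 held 508, 863 and 932. Within each genotype library 1 was the lowest, and the ranges overlapped almost entirely. The log2 difference was 0.10 (95% interval -0.63 to 0.83, adjusted p = 0.958), and its sign turned when control library 1 or ILK-K5 library 2 or 3 was left out (-0.10, -0.0067 and -0.062). Fstl1 spans 37776873 to 37836514 on chromosome 16 and Fstl3 spans 79777272 to 79782630 on chromosome 10. Fstl3, which binds activin like follistatin does, was close to the limit of detection, with 12, 6 and 35 reads in the control and 4, 19 and 10 reads in the ILK-K5 libraries. Its log2 difference of -0.62 had a 95% interval from -2.28 to 1.04 (adjusted p = 0.866). Of the exon bases of Fstl3, 47.3% lie also in exons of Prss57 on the opposite strand, and whether the counting used strand is not given in the sources used here, so that part of these few reads may belong to either gene.

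Neither type I receptor gene was called, although the 3 ILK-K5 libraries lay above the 3 control libraries for both. Acvr1b, the activin type I receptor, lies on chromosome 15 from 101174067 to 101213684. Its normalized counts in control libraries 1 to 3 were 652, 623 and 838, against 1093, 1091 and 1455 in ILK-K5 libraries 1 to 3. Replicate 3 was the highest of each genotype. The log2 difference was 0.78 (95% interval 0.20 to 1.37, adjusted p = 0.196 from limma). Acvr1 (Alk2), a type I receptor that carries mostly Bmp signals and that activin A can occupy without signalling, had 88.8, 77.5 and 139 normalized counts in control libraries 1 to 3. It had 162, 195 and 246 in ILK-K5 libraries 1 to 3. The gene spans 58388644 to 58567157 on chromosome 2. Its log2 difference was 1.001 (95% interval 0.20 to 1.80, adjusted p = 0.238). DESeq2 on the recovered reads did not call these genes either (adjusted p = 0.122 for Acvr1b and 0.166 for Acvr1), nor did edgeR (0.206 and 0.279).

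The type II receptor genes were not called. Acvr2a, on chromosome 2 from 48814109 to 48903269, had 2190, 1670 and 1252 normalized counts in control libraries 1 to 3, against 1513, 774 and 1139 in ILK-K5 libraries 1 to 3. Library 1 was the highest of each genotype, and ILK-K5 library 1 exceeded control library 3. The log2 difference was -0.59 (95% interval -1.33 to 0.15, adjusted p = 0.580). Acvr2b, which spans 119402118 to 119434995 on chromosome 9, was counted by 7, 1 and 10 reads in the control and by 9, 11 and 3 reads in the ILK-K5 libraries, and did not pass the filter.

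**Figure D2:**
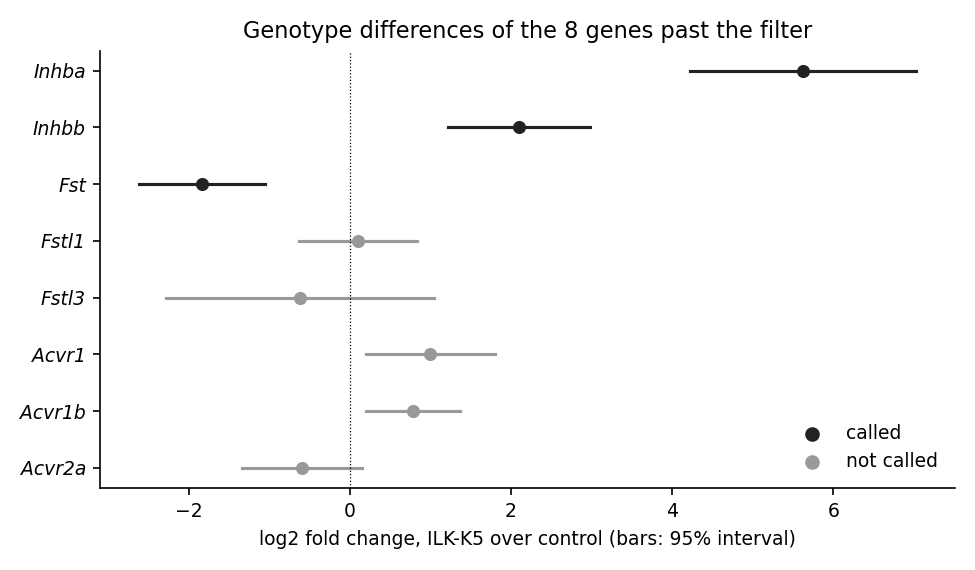
Log2 fold change of ILK-K5 over control for the 8 family genes past the filter, with the 95% interval from limma as a bar and called genes in black. The intervals of Inhba, Inhbb, Fst, Acvr1 and Acvr1b do not include 0, and those of Fstl1, Fstl3 and Acvr2a do.

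Levels of different genes were compared as FPKM, which corrects for the gene length that the authors used, given below. In control bulge SCs, Fst had the highest level of the family, with 82.5, 51.7 and 50.6 FPKM in libraries 1 to 3 (mean 61.6 ± 18.1, SD, n = 3). It was followed by Acvr2a with 30.7 ± 8.48, Acvr1b with 16.4 ± 2.71 and Fstl1 with 14.7 ± 3.48. Fst exceeded Acvr2a, and Acvr2a exceeded Acvr1b, without overlap between libraries, whereas Acvr1b and Fstl1 overlapped. Inhbb came next with 4.37 ± 2.10 and Acvr1 with 2.16 ± 0.690, and these overlapped as well. Fstl3 (0.644), Inhba (0.306) and Acvr2b (0.303) were at the bottom, with overlapping libraries and few reads.

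In FPKM at the lengths used, the order was compressed in ILK-K5 bulge SCs. The 6 most abundant genes lay between a mean of 28.2 ± 4.87 FPKM for Acvr1b and 15.8 ± 6.48 for Inhba (SD, n = 3), with Acvr2a (20.6), Fst (17.7), Inhbb (17.7) and Fstl1 (16.0) in between. Each of these overlapped with its neighbour in the order. Acvr1b overlapped with Acvr2a and lay above Fst, Inhbb, Fstl1 and Inhba in all libraries, with a lowest value of 25.4 FPKM against a highest of 24.7, 21.6, 19.5 and 23.2. Acvr1 (4.27 ± 0.907) was separated from this group and from Acvr2b (0.422) and Fstl3 (0.405) below it.

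**Figure D3:**
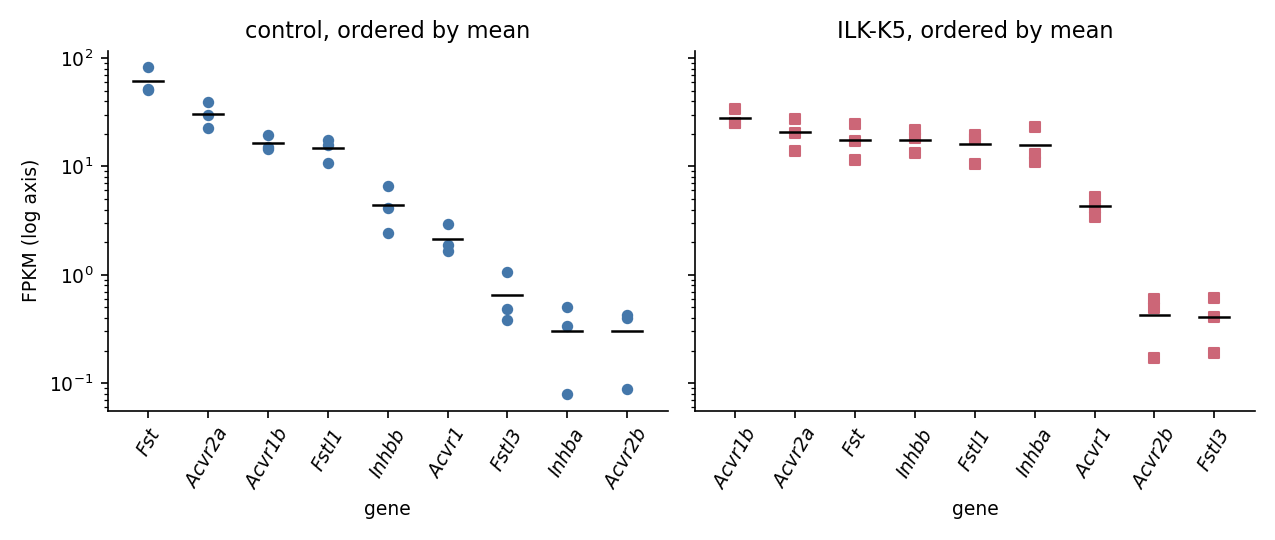
FPKM of the 9 family genes on a log axis in control (left) and ILK-K5 (right) libraries, ordered by the mean of the genotype, which is drawn as a line. In the control, Fst is at the top with a mean of 61.6 and Inhba near the bottom with 0.306, and in ILK-K5 the 6 most abundant genes lie within 28.2 and 15.8.

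The FPKM values rest on the gene lengths that the authors used, which can be read from the constant between the normalized counts and the FPKM of each gene. For Inhba this length was 1980 bases, where the exons of the GENCODE annotation cover 6390, for Fst 2337 of 4589 and for Acvr2b 1753 of 3928. For Acvr1b the lengths were 4413 and 4418, and for the other 5 family genes they were equal. Over the 33392 genes with both lengths, 72.5% were equal within 0.1%. FPKM of Inhba, Fst and Acvr2b therefore refer to shorter gene models, and reads on the rest of their exons were not part of these models. A comparison of one gene between libraries is not affected by its length.

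Ratios within a library do not depend on its scaling. Fst exceeded Inhba 165-fold, 657-fold and 150-fold in FPKM in control libraries 1 to 3, the second of these resting on 1 Inhba read. In ILK-K5 libraries 1 to 3 the same ratio was 1.03, 1.30 and 1.07. In each control library the antagonist gene was thus far above the Inhba gene, and in each ILK-K5 library the FPKM of both genes were close. The ratio itself rests on the lengths used for both genes, which covered 31.0% of the annotated exon bases of Inhba and 50.9% of those of Fst. With the same reads it would be larger at the annotated lengths, but the reads on the added bases are not known. On the scale of log2 of the ratio of FPKM + 0.1, Inhba over Fst averaged -7.38 ± 0.70 (SD, n = 3) for control libraries and -0.17 ± 0.18 (SD, n = 3) for ILK-K5 libraries, a difference of 7.21. With both β-subunit genes summed, Fst was 17.97, 20.7 and 7.30 times as high in the controls, and 0.467, 0.545 and 0.554 times as high in ILK-K5. Inhba accounted for 10.9%, 3.15% and 4.88% of the summed FPKM of the β-subunit genes in the controls and for 45.4%, 41.8% and 51.8% in ILK-K5 libraries 1 to 3.

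The make-up of the receptors varied less. Acvr1b accounted for 88.9%, 89.8% and 86.9% of the FPKM of both type I genes in the controls and for 88.1%, 86.0% and 86.6% in ILK-K5, with overlapping libraries. Acvr2a accounted for between 98.2% and 99.7% of both type II genes in the controls and for between 96.6% and 99.2% in ILK-K5. Acvr2a was 2.61, 2.08 and 1.16 times as high as Acvr1b in control libraries 1 to 3 and 1.07, 0.551 and 0.607 times as high in ILK-K5 libraries 1 to 3, so that the genotypes were separated by a narrow margin between control library 3 and ILK-K5 library 1. These ratios are descriptions, without a test.

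**Figure D4:**
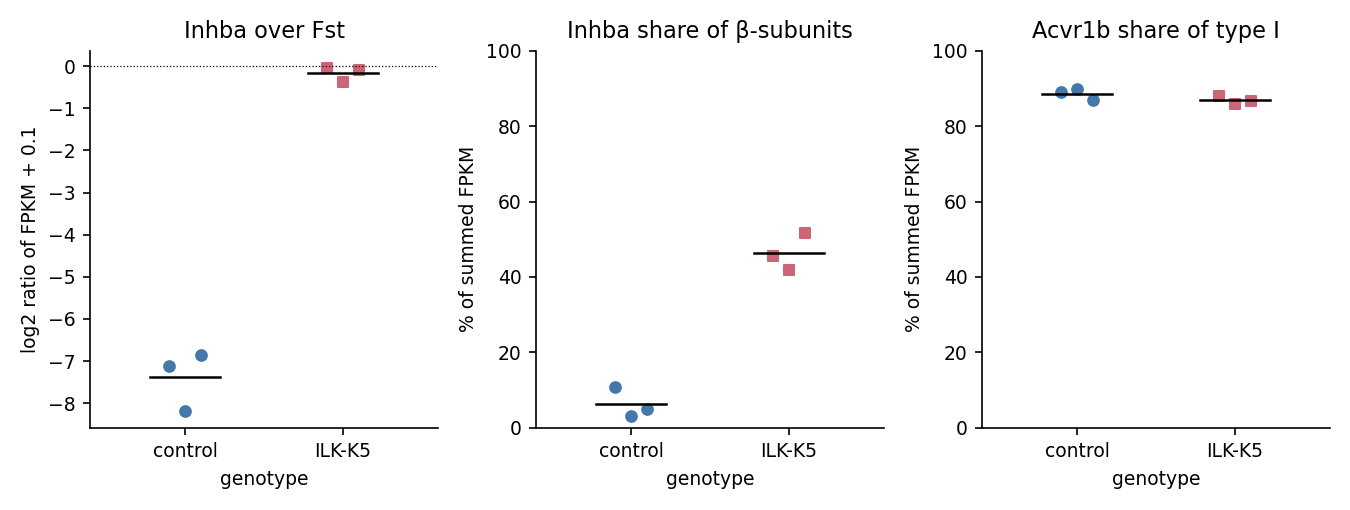
Ratios within each library from FPKM, with 1 point per library and the mean as a line: log2 of Inhba over Fst (left), the share of Inhba in both β-subunit genes (middle) and the share of Acvr1b in both type I receptor genes (right). The left and middle ratios are separated between the genotypes, with means of -7.38 and -0.17 and of 6.30% and 46.4%, and the right one overlaps, at 88.5% and 86.9%.

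The other genes of the pathway were taken from lists of ligands, extracellular inhibitors, receptors, Smads and target genes. Of 40 such genes 39 were in the table and 24 passed the filter, of which 2 were called higher and 1 lower, with a median log2 difference of 0.18. Over all genes tested, 2.93% were called higher and 0.599% lower, with a median of 0.0054. The libraries were separated for 8 of the 24 higher and for 3 lower in ILK-K5, against 10.9% and 6.95% of all genes tested. Among 8 further ligands of the activin and nodal class only Gdf11 passed, with a log2 difference of -0.10 (adjusted p = 0.979). Inha, whose α-subunit joins a β-subunit to form the antagonist inhibin, had a mean of 8.14 normalized counts in control and 11.2 in ILK-K5, and Inhbe had no reads in any library. Of 8 other inhibitors 4 passed, with a median of -0.66, and none was called by limma or edgeR at the adjusted threshold. Bambi, a pseudoreceptor for the superfamily, had the lowest value among them (log2 difference -1.66, adjusted p = 0.144 with limma, and 0.0196 with DESeq2). Every ILK-K5 library of Bambi lay below every control library, as for 6.95% of all genes tested. It was called by limma with a replicate block (0.0427) and with a term for the description number (0.0305), and in 0 of the 6 fits without a library.

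Of 9 other receptors and co-receptors 5 passed, with a median of 0.88. None was called by limma or edgeR, and 2 had an unadjusted p-value under 0.05 with limma, as did 12.3% of all genes tested. These were Tgfbr1 and Tgfbr2, the receptors for Tgf-β itself. The libraries of 3 of the 5 were separated, all higher in ILK-K5, as were 10.9% of all genes tested. The 3 were Tgfbr1, Tgfbr2 and Acvrl1 (log2 difference 0.88, adjusted p = 0.507 with limma). Tgfbr1 had a log2 difference of 1.12 (adjusted p = 0.0562 with limma), and was called by DESeq2 (adjusted p = 0.00635), with a replicate block (0.0147) and with a term for the description number (0.0112). Tgfbr2 had a log2 difference of 1.04 (adjusted p = 0.168 with limma and 0.111 with DESeq2), and was called with the block (0.0438) and with the term (0.0350). Acvr1c, the other activin type I receptor of the Alk7 class, had a mean of at most 2.17 normalized counts in either genotype. Of 10 Smads and partners 9 passed, with a median of 0.051. Smad2, Smad3 and Smad4, which carry the activin signal, were not called, with log2 differences of 0.19, 0.18 and 0.22 (adjusted p between 0.838 and 0.916). Smad9, a Bmp-class Smad, was the only one called, and fell by 3.20 on the log2 scale (adjusted p = 0.00770).

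The 5 genes listed as targets of Smad2 and Smad3 all passed the filter and had positive differences, with a median of 0.97. The libraries of 4 of them were separated, all higher in ILK-K5, as were 10.9% of all genes tested. The list is short, and pathway genes kept on other lists went the other way. Smad7, a feedback gene listed with the Smads, had a log2 difference of -0.78 (adjusted p = 0.708 from limma). Lefty1, listed with the inhibitors, had -0.93 (adjusted p = 0.700), and both overlapped between the genotypes. Pmepa1, which encodes a membrane protein that dampens Smad signalling, had 46.3, 63.9 and 74.0 normalized counts in control libraries 1 to 3, against 963, 727 and 619 in ILK-K5 libraries 1 to 3. Its rise was 3.63 on the log2 scale (adjusted p = 3.77e-04), and it was called in all 6 fits without a library. Ldlrad4, which encodes a related protein, had 18.3, 35.0 and 84.9 normalized counts in the controls and 439, 172 and 272 in ILK-K5. Its log2 change was 2.81 (adjusted p = 0.0304), it was called in 2 of the 6 fits without a library, and its adjusted p-value reached 0.143 in them. Of the 12 other alternatives 9 called Ldlrad4. It was not called by edgeR (adjusted p = 0.0507) or by limma in replicates 2 and 3 alone (1.97, adjusted p = 0.129). Skil (0.97, adjusted p = 0.234), Tgif1 (0.53) and Ski (0.35) were not called. These genes also respond to Tgf-β, and the libraries do not tell the ligands apart.

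**Figure D5:**
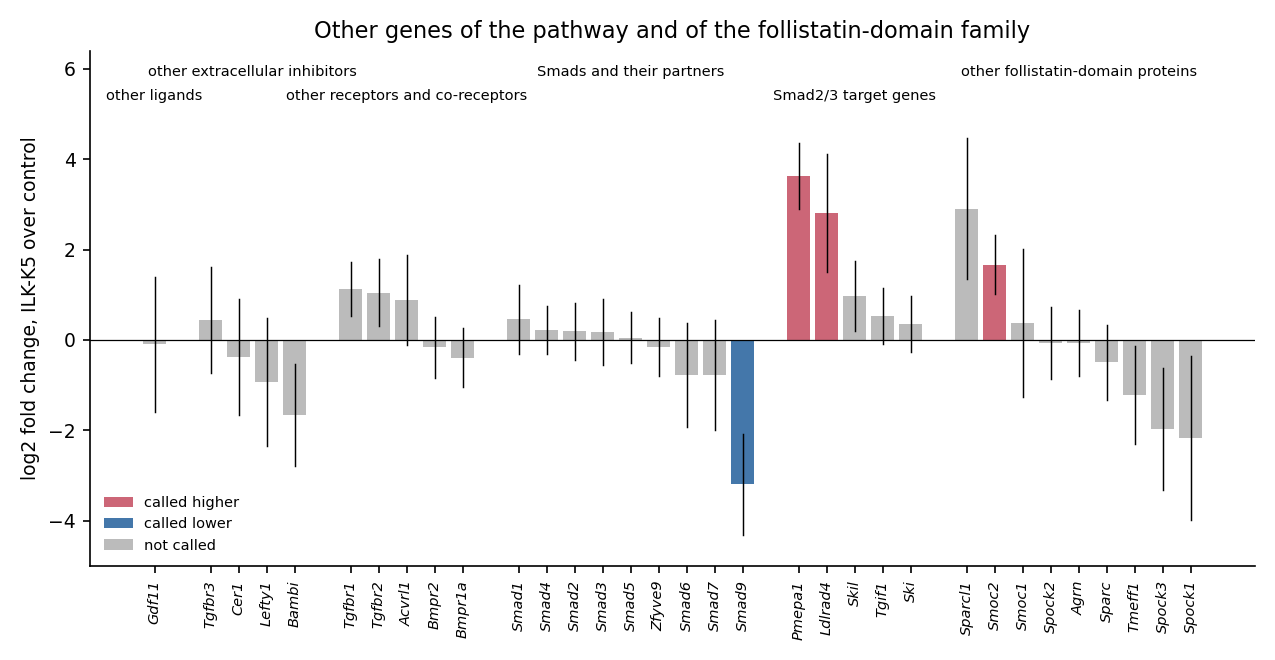
Log2 fold change of ILK-K5 over control for the genes past the filter in 6 lists, as bars with the 95% interval from limma as a line, in red where called higher and blue where called lower. Pmepa1 (3.63), Ldlrad4 (2.81) and Smoc2 (1.67) are called higher, Smad9 (-3.20) lower, and the rest are not called.

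Other proteins that share the follistatin domain with Fst gave no common direction. Of 12 genes 9 passed the filter, 3 with positive and 6 with negative differences, with a median of -0.069. Smoc2, a matricellular protein, was called higher, with 303, 274 and 427 normalized counts in control and 1060, 1296 and 831 in ILK-K5 libraries 1 to 3 (log2 change 1.67, adjusted p = 0.0140). Its call was lost in 3 of the 6 fits without a library. Sparc, the most abundant gene of the list, had a log2 difference of -0.50 (adjusted p = 0.737).

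Markers of other cells moved with the genotype as well. All 15 macrophage markers were called higher, as were 2.93% of all genes tested, and their median log2 change was 6.86. C1qa, C1qb, C1qc, Mrc1, Cd14, Aif1 and Fcgr1 had control means below 10 and passed the filter only through their ILK-K5 libraries. The summed normalized counts of the 15 markers were 303, 373 and 217 in control and 16856, 24204 and 17892 in ILK-K5 libraries 1 to 3. Fcgr1 had no reads in any control library. Inhba can be expressed by macrophages as well as by epithelial and mesenchymal cells. Per 1000 summed macrophage marker counts there were 31.9, 4.08 and 30.1 normalized counts of Inhba in control and 12.7, 10.4 and 24.99 in ILK-K5 libraries 1 to 3, and these ranges overlapped. The control values rest on 10, 1 and 9 reads of Inhba. Their marker sums were small, with 197, 190 and 45.7 normalized counts from Itgam alone, so that little can be read from the overlap. The ILK-K5 library with the most Inhba, library 3, was not the one with the highest macrophage sum, which was library 2. The part of these cells in the differences of Inhba, Inhbb and Fst was not tested. In bulk libraries, fewer cells of a type and less RNA per cell cannot be told apart.

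The remaining marker lists moved less. Of the fibroblast markers 1 of 4 tested was called higher (Col3a1), and their sum ranged from 703 to 779 in control and from 1532 to 2493 in ILK-K5. Among markers of the dermal papilla, the mesenchyme at the base of the follicle, Sox2 had no reads in any library, Corin had at most 4.82 normalized counts, and 1 of 3 tested (Vcan) was called higher. For neutrophils 2 of 4 tested markers were called higher (sums of 31.9 to 50.2 and of 217 to 294, with Ly6g and Retnlg at 0 in ILK-K5). These were S100a8 and S100a9, with control means of 4.18 and 1.74, which passed the filter only through their ILK-K5 libraries. For T cells 1 of 5 was called higher (sums of 122 to 162 and of 205 to 277). None of the 2 endothelial, 4 melanocyte and 7 basal keratinocyte markers tested was called by limma or edgeR, with medians of -0.67, 0.40 and -0.19, whereas DESeq2 called Tek (adjusted p = 0.0311) and Tyrp1 (adjusted p = 0.0123). Of the differentiated keratinocyte markers 1 of 6 was called lower (Lor). The part of these cells in the differences of the family was not tested either.

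The genes whose levels followed each family gene most closely were ranked by Pearson correlation of log2(normalized count + 1) over the 6 libraries. These libraries share 2 genotypes, so that a gene that differs in the same direction can rank high. This holds whatever the size of its difference, and r is a description. Closest to Inhba were Zfp281, Epsti1, M6pr, Nfam1 and Olfml3, with r from 0.993 to 0.991, and 3 of them were called higher. The called genes Epsti1, Nfam1 and Olfml3 had log2 differences of 3.83, 5.62 and 5.85, whereas Zfp281 and M6pr had 0.65 and 0.63. Closest to Inhbb were Alg10b, Fads1, Trpv2, Crem and Tnfrsf13b (r from 0.993 to 0.990). Dpyd, Duox1, Ogdhl, Ssx2ip and Pdk2 were closest to Fst (0.994 to 0.987), and Ogdhl was called lower. For Acvr1b they were Fam3c, Alg10b, Bcl2l11, Nlrc3 and Rgs4 (0.988 to 0.985), and for Acvr2a Intu, Nfasc, Hpca, Gm37176 and Tut4 (0.997 to 0.991). Alg10b was the only gene on 2 of these lists, those of Inhbb and Acvr1b.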

How the data were processed

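Bulge SCs were sorted into TRIzol LS, their RNA was amplified as cDNA (Ovation V2), and Nextera XT libraries were sequenced from both ends. The submitters' processing notes name TopHat2 2.0.14, Bowtie2 2.2.4, DESeq2 1.6.3 and GRCm38, and the counting program is not given in the sources used here. The signal values, deposited by the authors as normalized counts, are the reads of each gene over the size factor of the library: in every library 100% of values were whole multiples of 1 read within 1e-04. The FPKM, as deposited by the authors, equal these counts times 1 constant per gene. The authors' own comparison (fold changes, standard errors, p-values) was not used. Symbols and coordinates came from GENCODE M21 (GRCm38), with 97.3% of 43274 genes matched.

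limma 3.58.1 (lmFit, eBayes with trend; R 4.3.3, two-sided) was fitted to log2(normalized count + 1) of all genes with a mean of at least 10, with no term for replicate. The alternatives were pseudocounts of 0.1 and 5, other filters, TMM, quantile normalization, FPKM, edgeR 4.0.16 and DESeq2 1.42.0 on recovered reads (edgeR called 429 genes higher and 86 lower), terms for replicate or description number, and fewer libraries. Methods were tested on simulated data. Every pair of libraries differed beyond sampling noise (chi-square per degree of freedom at least 17.4), and nothing says that libraries came from separate mice, so that p-values measure the spread between these libraries. Family members, gene lists and tests were chosen with earlier results of these data known. Named genes are the family, genes of the lists, Ilk, and the 5 genes most correlated with each called family gene and with the most abundant receptor of each type. 1 gene of the pathway lists is not reported here.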

Additional observations from a re-analysis of the deposited data

How the results depend on the processing

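Of the 8 family genes tested, 7 were fitted under 18 alternatives, 6 of which left out a library, and Fstl3 under 17, since it had no value with a mean of at least 50. Inhba rose in all 18, by between 4.83 and 6.27 on the log2 scale. With replicates 2 and 3 only, 1 family gene was called higher and 0 were called lower (limma, with Inhbb at an adjusted p-value of 0.0593 and Fst at 0.0741). When single libraries were left out, between 1 and 2 family genes were called higher and between 0 and 1 lower. Under the other 11 alternatives with all libraries the counts were 2 and 1. The log2 difference of Fstl1, 0.10, ranged from -0.10 to 0.38 when single libraries were left out, and was negative without control library 1 (-0.10), ILK-K5 library 2 (-0.0067) or ILK-K5 library 3 (-0.062). No other tested family gene changed direction. The median of all genes moved by -0.088 with quantile normalization and by -0.11 without a filter on low counts, and by less under the others.

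The difference in log2 of Inhba over Fst, 7.21, was 7.73 with a pseudocount of 0.01, 5.40 with a pseudocount of 1 and 4.69 for Inhba plus Inhbb over Fst plus Fstl3. It lay between 6.81 and 7.47 under the other alternatives, which include each fit without a library.

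Same-numbered libraries did not all deviate together from their genotype means (r = 0.53, 0.020 and 0.31 for replicates 1 to 3), and control replicates 2 and 3 each correlated best with the other number. Deviations from a mean of 3 libraries depend on one another, so that these values cannot decide whether libraries were paired. The paper states that controls of its in vivo experiments were littermates of ILK-deficient mice, and the labels do not give litters. The numbers were not taken as pairs in the main fit. With a replicate block, 848 genes were called higher and 269 lower, against 479 and 98 without, the family counts were 2 and 1, and the Inhba over Fst difference was 7.21. With a term for the number in the descriptions the counts over all genes were 846 and 286, with DESeq2 780 and 271, and without single libraries between 222 and 559 and between 32 and 98. Fstl3 and Acvr2b had few reads, and Acvr2b did not pass the filter.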
